A study of Sus scrofa with 12 samples.

Results

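Amino acid transporters are described here as the 58 genes, of 21153 in the count table, whose pig Ensembl symbol begins with SLC1A, SLC3A, SLC6A, SLC7A, SLC36A, SLC38A or SLC43A followed by a digit, low ones included. Messenger RNA was counted by RNA sequencing in primary smooth muscle cells of porcine coronary artery, at passages 6 to 11. Cells grew for 24 h at 60 cells/mm2 in medium with 10% fetal calf serum and were then left for 4 h with PDGF-BB (30 ng/ml) and S100A4 (1 µg/ml) together, with S100A4 alone, with PDGF-BB alone, or with neither (control). PDGF-BB is a growth factor that drives smooth muscle cells to divide and migrate, while S100A4, which binds calcium, works both within cells and as a secreted factor. The design text writes it oS100A4 and leaves the prefix unexplained. All groups shared the serum, and each had 3 libraries numbered 1 to 3, so n is 3 per group throughout. The design text names 3 animals as the source of the cells, but no label ties a replicate number to an animal. What the p-values measure is therefore spread among these libraries. In the main fit it is the spread left once differences between replicate numbers are taken off, and without that step the spread was larger.

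Cells take up amino acids through families of membrane carriers with overlapping substrates. Exchangers built from an SLC7 light chain and an SLC3 heavy chain bring in leucine, other large neutral amino acids or cystine and let glutamine or glutamate out, while SLC1A5 and SLC38 carriers supply the glutamine. Cationic SLC7 carriers bring in arginine, the substrate of nitric oxide synthases and arginases, and in vascular smooth muscle arginine also feeds polyamine and proline synthesis. Another set of carriers sits on the lysosome, where its members release amino acids and report their supply to the growth kinase mTORC1. These roles are known mainly from human and rodent proteins. The symbol rule also takes in genes that carry other things: SLC6A2, SLC6A3 and SLC6A4 carry monoamines, SLC6A8 carries creatine, SLC43A3 carries purine nucleobases, and SLC7A6OS is no carrier and is named for lying opposite SLC7A6.

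Libraries held 21455021 to 32448438 counts, so 1 CPM (CPM are counts relative to the size of the library, scaled by TMM) stood for about 21.5 counts in the smallest. The 58 genes together took 0.176 to 0.230% of the counts of a library. Of them 33 passed the filter on low counts and were tested, and 25 were not tested. Smooth muscle markers were present, with ACTA2 at 6554 to 17454 CPM, whereas TAGLN, another defining marker, was at 3.21 to 7.21 CPM; whether the annotated gene holds all of the TAGLN transcript was not tested. Of the 4 T cell markers CD3E, CD3D and CD2 were at 0 in every library and CD247 was at 3.87 to 9.62 CPM, and the leukocyte marker PTPRC was at 0 in every library. Replicate 2 stood apart in every group. Its mean over the 4 groups was 138 CPM for the fibroblast marker PDGFRA, against 34.6 CPM in replicate 1 and 11.1 CPM in replicate 3. Of the fibroblast list DCN, LUM and PI16 were also highest in replicate 2, while TCF21 and COL1A1 were lowest there, COL1A1 at a mean of 20533 CPM against 36069 CPM in replicate 1 and 31264 CPM in replicate 3. The difference was not limited to fibroblast markers. Of the endothelial list PECAM1, CDH5, ERG, TIE1 and TEK were highest in replicate 2, whereas the untested KDR was highest in replicate 3. PECAM1 had a mean of 22.1 CPM in replicate 2, 3.51 CPM in replicate 1 and 11.1 CPM in replicate 3. The fit carried replicate number as a block, so each difference is one within replicate numbers. The count of called members without the block stands beside the count with it.

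PDGF-BB, alone or with S100A4, went with higher mRNA of the leucine exchanger SLC7A5, the cystine exchanger SLC7A11 and the arginine carrier SLC7A1. The same treatments went with lower mRNA of lysosomal SLC38A7 and SLC36A1, the neutral amino acid carriers SLC1A4 and SLC38A2, the glycine carrier SLC6A9 and the purine carrier SLC43A3. S100A4 went with higher SLC7A2, the inducible arginine carrier, at 4.41 times the control level, and with higher SLC7A11 and SLC7A1. In RNA from a whole dish, fewer cells of a type and less RNA per cell cannot be told apart. Numbers with ± are log2 fold changes and their SE, unless another unit is given.

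With PDGF-BB+S100A4 against control, 15 of the 33 tested members were called at an adjusted p under 0.05, 6 higher and 9 lower (Benjamini-Hochberg over 12444 genes). Of all genes tested 56.1% were called, 27.5% higher and 28.6% lower, so the share of members is no larger than that of genes at large. The median was −0.01 over the members and −0.03 over all genes. Under upper-quartile scaling the split was 5 higher and 13 lower. Without the block 2 members were called, SLC38A7 and SLC38A2, both lower, against 22% of all genes. In 1 member every library with both lay above every control library, and in 4 every one lay below. Among all genes 35.6% had no overlap in either direction.

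S100A4 against control gave 6 calls, 4 higher and 2 lower, against 10.7% of all genes (6.46% higher and 4.28% lower). The median was −0.02 over members and over all genes. Without the block edgeR called none of the 33, with 2 at an unadjusted p under 0.05, against 0.563% of all genes. In 3 members every S100A4 library lay above every control library, and in none did every one lie below. Among all genes 9.72% had no overlap in either direction. SLC1A2, 1 of the 3, was tested because of groups in which it was high.

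PDGF-BB against control gave 18 calls, 5 higher and 13 lower. Of all genes tested 48.8% were called, 24.3% higher and 24.5% lower, so the members' share of calls is near the background, with more of the calls lower. The median was −0.24 over the members and −0.02 over all genes. Without the block 2 members were called, SLC38A7 and SLC43A2, both lower, against 14.7% of all genes. In 6 members, every PDGF-BB library lay below every control library, and in none did every one lie above; 29.8% of all genes had no overlap in either direction. The 3 comparisons share the control libraries.

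**Figure D1:**
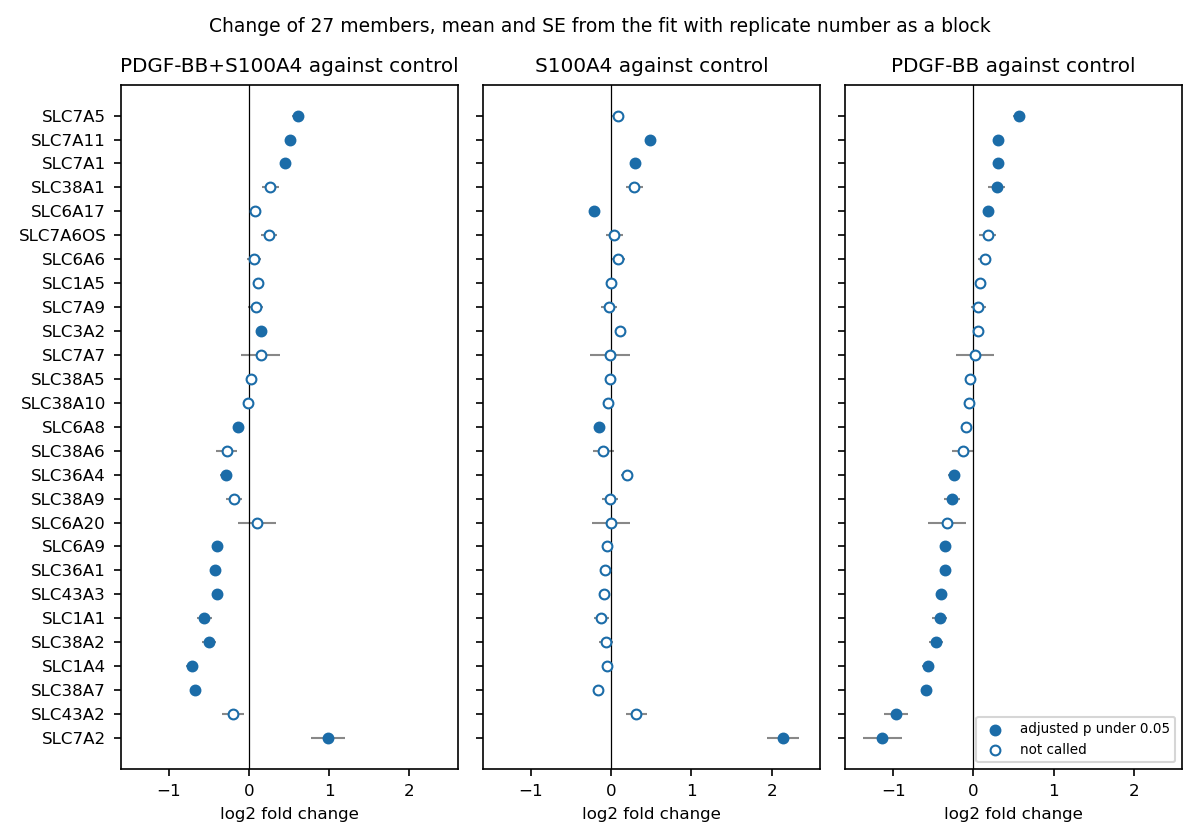
Log2 fold changes (horizontal axis) of the 27 members that passed the count cutoff in all 12 libraries, one row per gene, in PDGF-BB+S100A4, S100A4 and PDGF-BB cells against control; bars are SE from the blocked fit, and filled points are calls. SLC7A5, SLC7A11 and SLC7A1 lie right of 0 with PDGF-BB+S100A4 and with PDGF-BB, and SLC7A2 lies at −1.14 with PDGF-BB, 2.14 with S100A4 and 0.98 with both.

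Among the heterodimeric exchangers, SLC7A5 (LAT1), which trades internal glutamine for leucine and other essential amino acids, changed with PDGF-BB. Listed as replicates 1, 2 and 3, it read 302, 171 and 236 CPM with PDGF-BB+S100A4, 204, 107 and 186 with S100A4, 286, 167 and 231 with PDGF-BB and 190.4, 95.7 and 185 in control. Within every replicate number the libraries with PDGF-BB stood above those without it, although replicate 2 with PDGF-BB lay below control replicates 1 and 3, so the groups overlapped. The change was 0.61 ± 0.07 with PDGF-BB+S100A4 (adjusted p = 9.18e-06), 0.09 ± 0.07 with S100A4 (adjusted p = 0.542) and 0.57 ± 0.07 with PDGF-BB (adjusted p = 2.65e-05). Without the block the adjusted p was 0.266 with both and 0.369 with PDGF-BB.

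Its heavy chain SLC3A2 (CD98), which brings the light chains to the cell surface, moved less. It read 292, 178 and 261 CPM with PDGF-BB+S100A4, 272, 171 and 268 with S100A4, 280.3, 165 and 239.9 with PDGF-BB and 252, 154 and 253 in control. Replicate 2 was the lowest in each group and the groups overlapped. With both proteins SLC3A2 was higher by 0.15 ± 0.05 (adjusted p = 0.0114), and it was not called with S100A4 (0.11 ± 0.05) or PDGF-BB (0.06 ± 0.05). That call was lost under upper-quartile scaling and without replicate 1 of all groups, control replicate 1 or control replicate 2, where the adjusted p reached 0.155.

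SLC7A11 (xCT), which imports cystine for glutathione against glutamate, was higher under each treatment. Its libraries read 59.1, 33.4 and 61.1 CPM with PDGF-BB+S100A4, 58.2, 29.5 and 65.3 with S100A4, 52.96, 26.04 and 56.5 with PDGF-BB and 45.4, 19.1 and 46.02 in control. In each replicate number all 3 treated libraries lay above control, while replicate 2 lay far below the other replicates everywhere. The change was 0.52 ± 0.07 with both (adjusted p = 2.21e-05), 0.49 ± 0.07 with S100A4 (adjusted p = 3.07e-04) and 0.31 ± 0.07 with PDGF-BB (adjusted p = 0.00188).

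The other light chains tested were SLC7A7, which exports cationic amino acids against neutral ones with sodium, and SLC7A9, the kidney and gut partner of SLC3A1. SLC7A7 was at 1.29 to 3.55 CPM over the 12 libraries and SLC7A9 at 5.95 to 11.7 CPM, and neither was called against control. SLC3A1 itself was at 0.0326 to 0.990 CPM and passed the count filter through 5 libraries. With PDGF-BB it was called lower at −1.43 ± 0.43 (adjusted p = 0.0143), on 1 to 21 counts a library in those groups. The call was lost in DESeq2 and without replicate 3 of all groups, control replicate 3 or PDGF-BB replicate 3, with an adjusted p of up to 0.266. Its change was −0.79 without replicate 3 of all groups, −0.83 without control replicate 3 and −1.93 without control replicate 1. SLC7A6OS stayed at 8.13 to 11.1 CPM with no call against control.

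**Figure D2:**
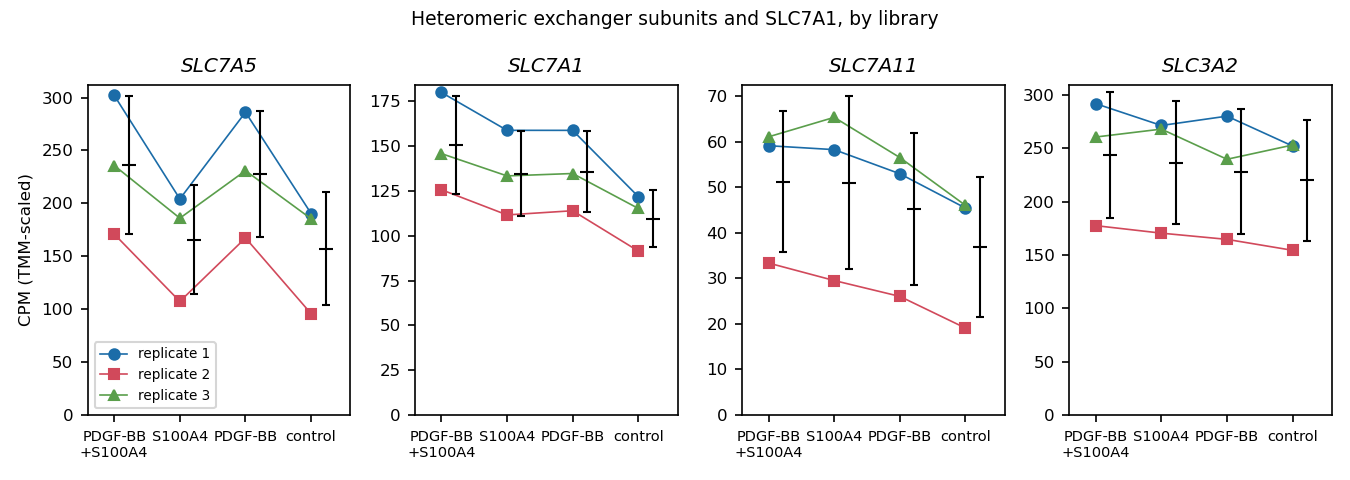
CPM (TMM-scaled, linear vertical axis from 0) of SLC7A5, SLC7A1, SLC7A11 and SLC3A2 in the 12 libraries by treatment; lines join libraries of the same replicate number, and black bars are the group mean ± SD (n = 3). SLC7A5 is higher in the 2 groups with PDGF-BB than in the 2 without it within each replicate number, and replicate 2 is lowest throughout.

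Of the cationic carriers, SLC7A1 (CAT-1), the constitutive carrier of arginine, lysine and ornithine, was higher under each treatment. It read 180.0, 126 and 146 CPM with PDGF-BB+S100A4, 159, 112 and 133 with S100A4, 159, 114 and 135 with PDGF-BB and 122, 91.5 and 115 in control. All 3 libraries with both proteins lay above all 3 control libraries; the other treatments overlapped control. Its change was 0.45 ± 0.04 with both (adjusted p = 8.71e-07), 0.29 ± 0.04 with S100A4 (adjusted p = 4.62e-04) and 0.31 ± 0.04 with PDGF-BB (adjusted p = 4.70e-05).

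SLC7A2 (CAT-2), the arginine carrier known in macrophages to rise with inflammatory activation, moved in opposite directions with the 2 proteins. Its libraries read 24.2, 68.02 and 27.4 CPM with PDGF-BB+S100A4, 58.8, 157 and 55.7 with S100A4, 9.96, 9.74 and 6.51 with PDGF-BB and 20.2, 26.3 and 11.6 in control. The lowest S100A4 library was above the highest control library, and the highest PDGF-BB library was below the lowest control library. Replicate 2 held the highest value in every group but PDGF-BB. With S100A4 it was higher by 2.14 ± 0.20, a fold of 4.41 (adjusted p = 6.95e-06). With PDGF-BB it was lower at −1.14 ± 0.24, 2.20-fold (adjusted p = 0.00149). With both it was higher by 0.98 ± 0.21 (adjusted p = 0.00122), and the libraries overlapped control. Leaving out any library moved the 3 values to 1.86 to 2.44 with S100A4, −1.42 to −0.76 with PDGF-BB and 0.71 to 1.31 with both, and no call was lost. Without the block the adjusted p was 0.193 with both, 0.157 with S100A4 and 0.193 with PDGF-BB, so none of the 3 was called.

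**Figure D3:**
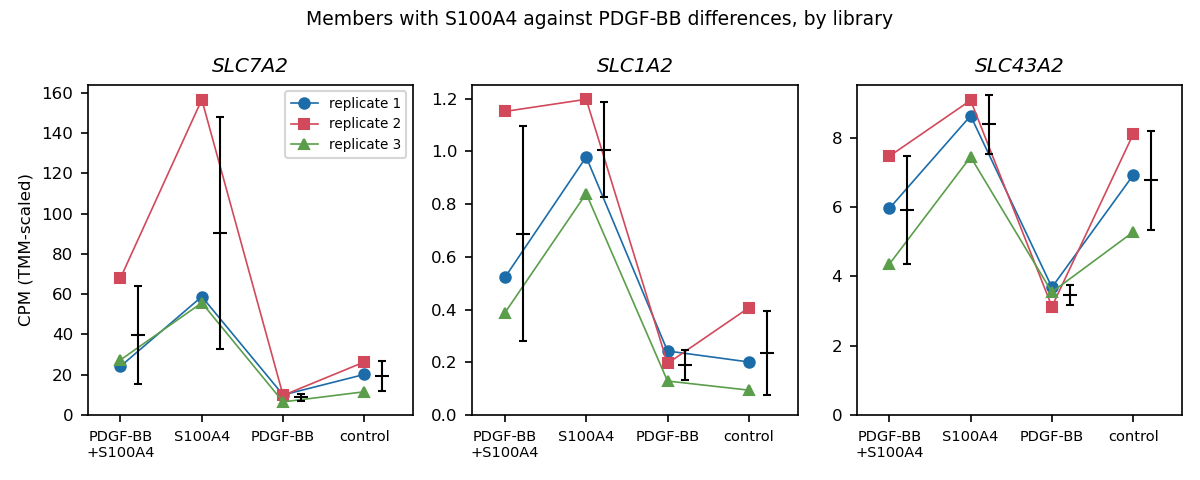
CPM (TMM-scaled, linear vertical axes from 0) of SLC7A2, SLC1A2 and SLC43A2 in the 12 libraries by treatment; lines join the same replicate number, and black bars are the group mean ± SD (n = 3). For each gene all S100A4 libraries lie above all PDGF-BB libraries, and SLC7A2 replicate 2 reaches 157 CPM with S100A4.

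The SLC1 family joins the glutamate carriers and the neutral exchangers. SLC1A5 (ASCT2), which brings in glutamine in exchange for other neutral amino acids, read 383, 250.1 and 323 CPM with PDGF-BB+S100A4, 350.1, 213 and 331 with S100A4, 362, 249.8 and 323 with PDGF-BB and 342, 219 and 329 in control. Replicate 2 was the lowest in each group and the groups overlapped. No comparison called it, with 0.11 ± 0.05 for both against control, 0.00 ± 0.05 for S100A4 and 0.08 ± 0.05 for PDGF-BB.

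SLC1A4 (ASCT1), which exchanges serine, alanine and other small neutral amino acids, was lower with PDGF-BB. It read 48.2, 26.1 and 35.9 CPM with PDGF-BB+S100A4, 74.9, 36.7 and 65.5 with S100A4, 53.4, 26.3 and 43.6 with PDGF-BB and 70.4, 39.6 and 71.6 in control. In each replicate number both libraries with PDGF-BB were below both without it, and replicate 2 was the lowest of its group throughout. The change was −0.72 ± 0.07 with both (adjusted p = 2.07e-06), −0.05 ± 0.07 with S100A4 (not called) and −0.57 ± 0.07 with PDGF-BB (adjusted p = 2.20e-05).

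SLC1A1 (EAAT3), a carrier of glutamate, aspartate and cysteine, read 11.2, 10.9 and 15.7 CPM with PDGF-BB+S100A4, 13.9, 14.2 and 23.4 with S100A4, 11.1, 10.5 and 20.7 with PDGF-BB and 15.8, 13.2 and 28.1 in control. Replicate 3 stood above the other replicates in every group. Its level was lower at −0.56 ± 0.10 with both (adjusted p = 2.10e-04) and −0.42 ± 0.09 with PDGF-BB (adjusted p = 0.00177), and was not called with S100A4 (−0.12 ± 0.09).

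SLC1A2 (EAAT2), the main glutamate carrier of brain astrocytes, was near the limit of detection. Its raw counts were 12, 29 and 9 counts with PDGF-BB+S100A4, 22, 31 and 22 with S100A4, 6, 6 and 4 with PDGF-BB and 5, 12 and 2 in control. These are 0.840 to 1.20 CPM in the S100A4 libraries and 0.0943 to 0.407 CPM in the control libraries, which did not overlap. The gene passed the filter through 3 S100A4 libraries, 2 with both proteins and 1 control library, so it was tested because of the groups in which it was high. It was higher by 2.05 ± 0.35 with S100A4 (adjusted p = 0.00142) and by 1.495 ± 0.38 with both (adjusted p = 0.00380), and was not called with PDGF-BB (−0.37 ± 0.48). Without replicate 2 of the cells given both proteins, the adjusted p of that comparison was 0.0602. SLC1A3 (EAAT1) was at 0.0472 to 0.509 CPM and was not called against control.

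Among the sodium-coupled SLC38 carriers, SLC38A2 (SNAT2), a glutamine and alanine carrier known to rise when amino acids run short, was lower with PDGF-BB. It read 167, 233 and 158 CPM with PDGF-BB+S100A4, 250.0, 259 and 238 with S100A4, 186, 207 and 175 with PDGF-BB and 285, 247 and 249 in control. All libraries with PDGF-BB, alone or with S100A4, lay below all control libraries. The change was −0.50 ± 0.09 with both (adjusted p = 2.99e-04), −0.07 ± 0.09 with S100A4 (not called) and −0.46 ± 0.09 with PDGF-BB (adjusted p = 6.75e-04). With both proteins it was also called without the block (adjusted p = 0.0293).

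SLC38A7 (SNAT7), which exports glutamine and asparagine from lysosomes, had the smallest adjusted p of the lowered members. It read 36.1, 32.2 and 41.9 CPM with PDGF-BB+S100A4, 52.5, 45.9 and 57.9 with S100A4, 38.1, 35.3 and 42.6 with PDGF-BB and 61.9, 53.3 and 60.1 in control. Here too every library with PDGF-BB was below every control library. It was lower at −0.68 ± 0.05 with both (adjusted p = 1.51e-07), a 1.60-fold difference, and at −0.60 ± 0.05 with PDGF-BB (adjusted p = 6.94e-07). With S100A4 alone its change of −0.17 ± 0.05 was not called (adjusted p = 0.0538). Both calls also stood without the block (adjusted p = 0.00344 with both and 0.00918 with PDGF-BB).

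SLC38A1 (SNAT1), a glutamine carrier of the plasma membrane, read 17.1, 20.3 and 18.2 CPM with PDGF-BB+S100A4, 17.4, 15.5 and 24.4 with S100A4, 17.3, 17.5 and 22.2 with PDGF-BB and 14.04, 14.1 and 18.6 in control. Each PDGF-BB library was above the control library of its number, and the groups overlapped. It was called higher with PDGF-BB at 0.29 ± 0.11 (adjusted p = 0.0388) and not with S100A4 (0.29 ± 0.11) or both (0.27 ± 0.11). The PDGF-BB call was lost under upper-quartile scaling, without replicate 1 of all groups and without any single PDGF-BB or control library, with an adjusted p of up to 0.151.

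SLC38A9, the lysosomal carrier that senses arginine for mTORC1, was at 7.67 to 9.16 CPM with PDGF-BB and 9.19 to 11.4 CPM in control, without overlap, and was called lower (−0.27 ± 0.10, adjusted p = 0.0355). That call was lost in DESeq2, without replicate 1 or 3 of all groups, without control replicate 1 or 3 and without any single PDGF-BB library (adjusted p up to 0.213). SLC38A5 (SNAT5, 70.0 to 118 CPM), SLC38A6 (2.80 to 4.18 CPM) and SLC38A10 (155 to 191 CPM) had no call against control. In the Sscrofa11.1 assembly, as RefSeq lists it, SLC38A1 (chr5:77009840-77076723) and SLC38A2 (chr5:77113491-77127715) lie close together, with the untested SLC38A4 at chr5:77411610-77489542. SLC38A1 and SLC38A2 thus had PDGF-BB changes of opposite sign, although the SLC38A1 call was lost in the alternatives given above.

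The SLC36 carriers tested, SLC36A1 and SLC36A4, were lower with PDGF-BB. SLC36A1 (PAT1), which moves small neutral amino acids with protons out of lysosomes and across the cell surface, read 44.9, 38.6 and 47.5 CPM with PDGF-BB+S100A4, 57.3, 46.2 and 63.3 with S100A4, 47.3, 40.3 and 50.03 with PDGF-BB and 61.6, 48.05 and 67.4 in control. With both proteins all libraries were below all control libraries. SLC36A1 was lower at −0.43 ± 0.05 with both (adjusted p = 5.42e-06) and −0.36 ± 0.05 with PDGF-BB (adjusted p = 3.65e-05), and not called with S100A4 (−0.08 ± 0.05).

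SLC36A4 (PAT4), a carrier of proline and tryptophan, read 13.96, 17.3 and 14.4 CPM with PDGF-BB+S100A4, 20.8, 22.7 and 20.5 with S100A4, 15.4, 16.3 and 15.4 with PDGF-BB and 19.96, 17.97 and 17.8 in control. Libraries with PDGF-BB lay below, and those with S100A4 alone above, all control libraries. It was lower at −0.29 ± 0.08 with both (adjusted p = 0.00630) and −0.24 ± 0.08 with PDGF-BB (adjusted p = 0.0179). The S100A4 difference of 0.20 ± 0.07 did not pass (adjusted p = 0.113). The call with both was lost without replicate 1 or 3 of all groups or control replicate 1 (adjusted p up to 0.138), and the PDGF-BB call also without PDGF-BB replicate 1 or 2 (up to 0.164).

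**Figure D4:**
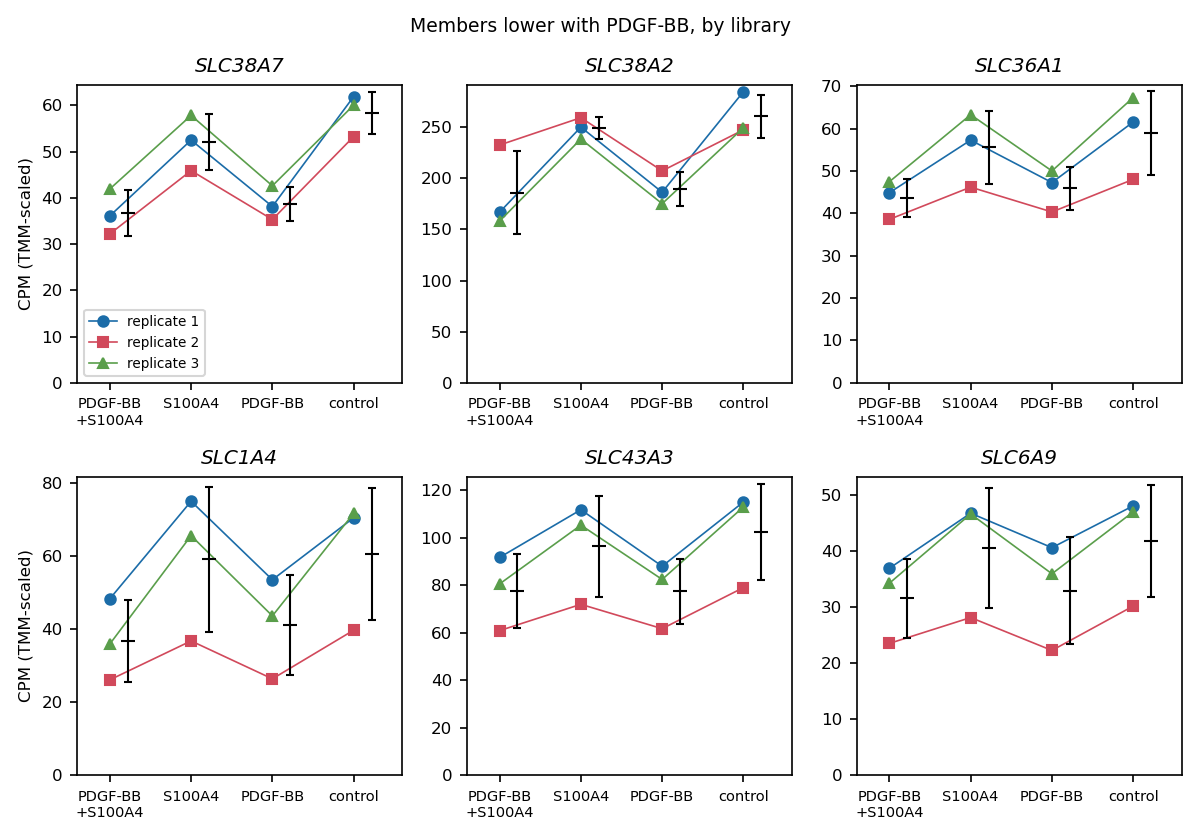
CPM (TMM-scaled, linear vertical axes from 0) of SLC38A7, SLC38A2, SLC36A1, SLC1A4, SLC43A3 and SLC6A9 in the 12 libraries by treatment; lines join the same replicate number, and black bars are the group mean ± SD (n = 3). Within each replicate number both libraries with PDGF-BB lie below both libraries without it, as in SLC38A7 replicate 1 with 36.1 CPM under both proteins and 61.9 CPM in control.

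The SLC43 genes differ in what they carry. SLC43A2 (LAT4), which lets branched-chain amino acids and phenylalanine through in either direction, read 5.96, 7.47 and 4.35 CPM with PDGF-BB+S100A4, 8.63, 9.08 and 7.45 with S100A4, 3.68, 3.13 and 3.55 with PDGF-BB and 6.92, 8.10 and 5.28 in control. Every PDGF-BB library was below every library of the other 3 groups. With PDGF-BB it was lower at −0.97 ± 0.15, 1.95-fold (adjusted p = 8.79e-05), also without the block (adjusted p = 0.0131). With both it was −0.20 ± 0.14 and with S100A4 0.31 ± 0.13, neither of which was called. SLC43A3, the purine nucleobase carrier, read 91.6, 60.8 and 80.5 CPM with PDGF-BB+S100A4, 112, 71.9 and 105 with S100A4, 87.9, 61.6 and 82.3 with PDGF-BB and 115, 78.9 and 113 in control. In each replicate number both libraries with PDGF-BB were below both without, and the groups overlapped because of replicate 2. It was lower at −0.40 ± 0.04 with both (adjusted p = 3.74e-06) and −0.40 ± 0.04 with PDGF-BB (adjusted p = 4.88e-06).

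Of the sodium- and chloride-coupled SLC6 carriers, 8 of 18 were tested. SLC6A9 (GlyT1), a glycine carrier, read 36.9, 23.5 and 34.3 CPM with PDGF-BB+S100A4, 46.8, 28.1 and 46.6 with S100A4, 40.6, 22.3 and 35.9 with PDGF-BB and 48.1, 30.2 and 47.01 in control. Replicate 2 was the lowest of each group, and within numbers the libraries with PDGF-BB were below those without. SLC6A9 was lower at −0.40 ± 0.06 with both (adjusted p = 3.17e-05) and −0.35 ± 0.05 with PDGF-BB (adjusted p = 1.12e-04).

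SLC6A17, a neutral amino acid carrier described in neuronal vesicles, read 65.9, 88.8 and 77.3 CPM with PDGF-BB+S100A4, 54.9, 72.6 and 62.4 with S100A4, 72.1, 100.2 and 78.1 with PDGF-BB and 64.1, 82.02 and 73.4 in control. In each replicate number the PDGF-BB library was above control and the S100A4 library below it. It was higher by 0.19 ± 0.04 with PDGF-BB (adjusted p = 0.00345) and lower at −0.21 ± 0.05 with S100A4 (adjusted p = 0.00804); with both the change of 0.08 ± 0.05 was not called. The S100A4 call was lost without replicate 1 or 3 of all groups, control replicate 3 or S100A4 replicate 2 (adjusted p up to 0.126).

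SLC6A8, the creatine carrier, read 130.3, 131 and 149 CPM with PDGF-BB+S100A4, 120.3, 129 and 155 with S100A4, 134, 135 and 153 with PDGF-BB and 145, 139 and 165 in control. Each treated library was below the control library of its number, and the groups overlapped. SLC6A8 was lower at −0.13 ± 0.04 with both (adjusted p = 0.0174) and −0.15 ± 0.04 with S100A4 (adjusted p = 0.0330). The call with both was lost when only those groups were fitted and without replicate 1 or 3 of all groups, control replicate 1 or replicate 3 of the cells with both (adjusted p up to 0.110). The S100A4 call was lost in DESeq2, without any replicate number, without control replicate 1 or 3 and without S100A4 replicate 1 or 2 (up to 0.436).

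The taurine carrier SLC6A6 (16.7 to 37.7 CPM) and the proline carrier SLC6A20 (0.903 to 1.74 CPM) had no call against control. Of the 3 SLC6 genes tested at under 1 CPM, the serotonin carrier SLC6A4 (0.236 to 0.850 CPM) and the proline carrier SLC6A7 (0.193 to 0.486 CPM) had no call. The noradrenaline carrier SLC6A2 passed the filter through 2 control libraries and 1 S100A4 library, so it was tested because of groups in which it was high. It was called lower with PDGF-BB (−1.34 ± 0.49, adjusted p = 0.0374). Its libraries read 4, 3 and 6 counts with PDGF-BB+S100A4, 7, 3 and 11 with S100A4, 5, 0 and 9 with PDGF-BB and 17, 2 and 11 in control, and the call was lost in DESeq2, with no filter, without replicate 1 of all groups, without control replicate 1 or 3 and without any single PDGF-BB library (adjusted p up to 0.329).

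The 25 members not tested had at most 11 counts in any library. SLC38A11, SLC6A5, SLC6A14, SLC6A18, SLC6A19 and SLC7A14 were at 0 in all 12 libraries. SLC6A11, SLC7A13 and SLC7A4 had at most 1 count in a library. SLC1A6, SLC1A7, SLC36A2, SLC36A3, SLC38A4, SLC43A1, SLC6A3, SLC6A13 and SLC7A3 reached 2 to 5 counts, and SLC38A3, SLC38A8, SLC6A12 and SLC6A15 reached 6 to 8. SLC7A10 had 1 to 5 counts and SLC7A8, the light chain LAT2, 1 to 11 counts, each detected in all 12 libraries. The untested members include the glutamate carriers SLC1A6 and SLC1A7, the GABA carriers SLC6A11 and SLC6A13, the dopamine carrier SLC6A3, the glycine carrier SLC6A5 and the kidney and gut carriers SLC6A18 and SLC6A19. With so few counts none of them was tested, so a difference in any of them is neither shown nor excluded.

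Adding S100A4 to PDGF-BB raised 3 members and lowered none, against 7.14% of all genes called, 5.11% higher and 2.03% lower. In the comparison of PDGF-BB+S100A4 with PDGF-BB alone, SLC7A2 was higher by 2.12 ± 0.23, 4.34-fold (adjusted p = 4.39e-05), SLC1A2 by 1.86 ± 0.39 (adjusted p = 0.00830) and SLC43A2 by 0.77 ± 0.15 (adjusted p = 0.00533). In these 3 genes and in SLC6A20, which was not called, all libraries with both proteins lay above all PDGF-BB libraries; 8.69% of all genes had no overlap in either direction. SLC1A2 passed the filter through no PDGF-BB library. The SLC1A2 call was lost without replicate 2 or 3 of all groups and without replicate 2 of either group (adjusted p up to 0.143), and the SLC43A2 call without replicate 1 or 2 of all groups (up to 0.0744). Without the block edgeR called none, with 3 members at an unadjusted p under 0.05, against 0.273% of all genes.

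Adding PDGF-BB to S100A4 gave 13 calls, 3 higher and 10 lower, against 47.8% of all genes called, 24.9% higher and 22.9% lower. In PDGF-BB+S100A4 cells SLC7A5 (0.53 ± 0.07, adjusted p = 5.29e-05), SLC6A17 (0.29 ± 0.05) and SLC7A1 (0.16 ± 0.04) were higher than in S100A4 cells. SLC7A2 was lower at −1.16 ± 0.19 (adjusted p = 1.67e-04), SLC1A4 at −0.67 ± 0.08, SLC38A7 at −0.50 ± 0.05, SLC36A4 at −0.49 ± 0.08, SLC36A1 at −0.34 ± 0.05 and SLC43A3 at −0.31 ± 0.04. SLC38A2, SLC6A9, SLC1A1 and SLC43A2 were the other lowered members. The SLC7A1 call was lost without replicate 1 of all groups (adjusted p = 0.0677) and the SLC43A2 call without replicate 1 or 3 (up to 0.0614). Without the block SLC38A7 and SLC36A4 were called, against 15% of all genes.

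Set directly against each other, S100A4 cells had 12 members higher and 2 lower than PDGF-BB cells, against 43.1% of all genes called, 20.6% higher and 22.5% lower. The median was 0.18 over the members and 0.00 over all genes. In 6 members every S100A4 library lay above every PDGF-BB library, and in none did every one lie below. Among all genes 26.4% had no overlap in either direction. SLC7A2 was 9.70-fold higher (3.28 ± 0.22, adjusted p = 7.63e-08) and SLC43A2 2.42-fold (1.27 ± 0.14, adjusted p = 6.58e-06). SLC1A2 was called higher too, and it was tested only because of groups in which it was high, S100A4 among them and PDGF-BB not. The lower ones were SLC7A5 (−0.48 ± 0.07) and SLC6A17 (−0.40 ± 0.05). The other higher members were SLC38A7, SLC1A4, SLC36A1, SLC43A3, SLC36A4, SLC6A9, SLC38A2, SLC1A1 and SLC7A11, at 0.18 to 0.52. The SLC1A1 call was lost without replicate 1 or 2 of all groups, PDGF-BB replicate 1 or 2 or S100A4 replicate 2 (adjusted p up to 0.0900), and the SLC7A11 call without replicate 1 or 3 of all groups and without any single library of either group (up to 0.224). Without the block SLC7A2, SLC43A2, SLC38A7, SLC1A2 and SLC36A4 were called, against 11.1% of all genes.

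No member passed the interaction test, which asks whether the log2 effect of S100A4 in the presence of PDGF-BB differs from its effect alone; 0.113% of all genes did. SLC7A11 (−0.28 ± 0.10), SLC7A1 (−0.15 ± 0.06), SLC43A2 (0.46 ± 0.20) and SLC36A4 (−0.25 ± 0.11) had an unadjusted p under 0.05 in edgeR, and the lowest adjusted p was 0.394. DESeq2 called none of the 22 members for which it gave an adjusted p, and limma-voom none of the 33. For SLC7A2 the interaction was −0.03 ± 0.31, so unequal effects of S100A4 with and without PDGF-BB of that size lie within its error.

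Replicate number moved many members. In all 4 groups replicate 2 was below the mean of the other replicates in 17 of the 33 tested members and above it in 4. This count was not made over all genes, so it does not show whether members differ from genes at large. On the log2 CPM scale the mean difference over the groups was −1.06 for SLC7A11, −0.83 for SLC1A4, −0.77 for SLC7A5, −0.69 for SLC6A9 and −0.67 for SLC3A2, and 0.98 for SLC7A2. Replicate 2 also had the lowest summed level of the 8 smooth muscle markers, at 7917 to 9303 CPM, against 17548 to 21892 CPM in the other replicates. The part of cell makeup in these differences was not tested.

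**Figure D5:**
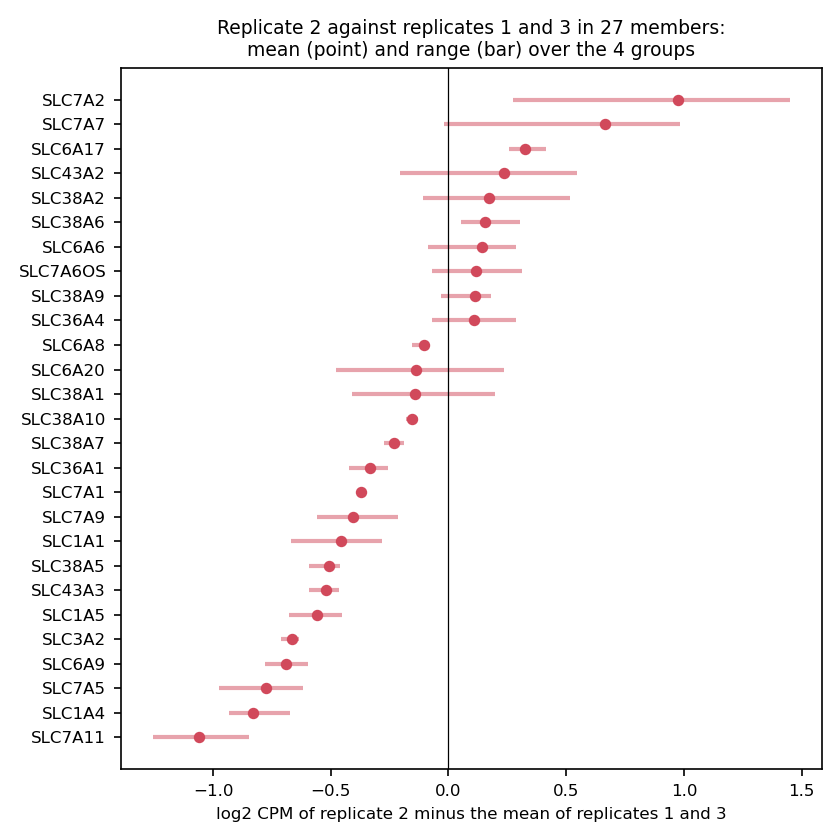
Difference in log2 CPM between replicate 2 and the mean of replicates 1 and 3 (horizontal axis) for the 27 members over the count cutoff in all 12 libraries; points are means over the 4 groups and bars run from the lowest to the highest group. SLC7A2 lies at 0.98 and SLC7A11 at −1.06.

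Markers of other cells and of smooth muscle were read in the same comparisons with control. Among all genes tested, 27.5% were called higher and 28.6% lower with PDGF-BB+S100A4, 6.46% and 4.28% with S100A4, and 24.3% and 24.5% with PDGF-BB. Without the block 22%, 0.563% and 14.7% of all genes were called in either direction. Of 6 endothelial markers counted, 5 were tested, with 1 higher with PDGF-BB+S100A4, none called with S100A4 and 2 higher with PDGF-BB; without the block these were 1, 0 and 1. Their summed level was 133 to 208 CPM with both, 59.6 to 150.3 CPM with S100A4, 121 to 220.2 CPM with PDGF-BB and 55.3 to 140 CPM in control, and TEK and TIE1 were at 0 in some libraries. The 6 fibroblast markers counted went both ways, with 2 higher and 4 lower with both, 2 higher and 1 lower with S100A4, and 1 higher and 3 lower with PDGF-BB; without the block 1 was higher with both and no other was called. They summed to 20714 to 35741 CPM with both, 21959 to 36217 CPM with S100A4, 20443 to 35934 CPM with PDGF-BB and 22954 to 38052 CPM in control. The 5 pericyte markers had 1 higher and 1 lower with both, none called with S100A4, and 1 higher and 2 lower with PDGF-BB, and none was called without the block. Their median change was −0.37 with both, −0.21 with S100A4 and −0.34 with PDGF-BB, whereas their sum was 388 to 1805 CPM with both, 312 to 1504 CPM with S100A4, 420.4 to 1918 CPM with PDGF-BB and 319 to 1493 CPM in control. Of the 8 smooth muscle markers 3 were lower with both, 4 with S100A4 and 4 with PDGF-BB, and 1 was higher with both and 1 with PDGF-BB; without the block 1 was lower with both, 0 with S100A4 and 1 with PDGF-BB, and none was higher. The part of these markers in the transporter changes was not tested.

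Once the mean of each replicate number was taken off, some members varied together across the 12 libraries. SLC1A4 was most like SLC6A9 (Pearson r = 0.977) and SLC36A1 most like SLC43A3 (r = 0.976), SLC38A7 ran opposite to SLC7A5 (r = −0.962), and SLC1A2 followed SLC7A2 (r = 0.925). SLC1A2 had 2 to 31 counts a library and was tested because of the groups in which it was high, S100A4 among them. Treatment means were not taken off, so the r values hold the treatment changes given above. These values describe 12 libraries that share treatments and carry no p.

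Other genes that handle amino acids were read in the same fits. Of 25 tested genes of the amino acid response, ATF4 with its known targets, 3 were higher and 12 lower with PDGF-BB+S100A4, 4 higher and 2 lower with S100A4, and 1 higher and 15 lower with PDGF-BB. Of all genes 27.5% were higher and 28.6% lower with both, 6.46% and 4.28% with S100A4, and 24.3% and 24.5% with PDGF-BB. The list median was −0.15 with both, −0.01 with S100A4 and −0.21 with PDGF-BB, beside −0.03, −0.02 and −0.02 over all genes. Without the block the counts were 1 and 3, 1 and 0, and 0 and 1, where 22%, 0.563% and 14.7% of all genes were called in either direction. The lipoprotein receptor VLDLR, which had the smallest adjusted p of the list with PDGF-BB, read 418, 239 and 498 CPM with PDGF-BB+S100A4, 607, 337 and 732 with S100A4, 429.9, 241 and 535 with PDGF-BB and 636, 372 and 819.8 in control. Each library with PDGF-BB was below the control library of its number, and the groups overlapped because replicate 2 was low. VLDLR was lower at −0.65 ± 0.03 with both and −0.60 ± 0.03 with PDGF-BB. The stress protein NUPR1 was lower at −1.08 ± 0.10 and −1.41 ± 0.10, the alanine aminotransferase GPT2 at −0.81 ± 0.10 and −0.78 ± 0.09, and the secreted glycoprotein STC2 at −0.95 ± 0.11 and −0.87 ± 0.11. The transcription factor CEBPB was higher by 0.77 ± 0.06 with both and 0.82 ± 0.06 with S100A4, where DDIT4 (0.37 ± 0.06), ATF3 (0.54 ± 0.10) and CBS (0.37 ± 0.07) were higher too.

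The 19 cytosolic aminoacyl-tRNA synthetases, which load amino acids onto tRNAs, had 8 higher and 3 lower with both, and 6 higher and 3 lower with PDGF-BB. Of all genes 56.1% were called with both and 48.8% with PDGF-BB, so these shares are near the background. With S100A4 edgeR called none, with 2 at an unadjusted p under 0.05 (0 without the block, and no call under any alternative run, DESeq2 and limma-voom included). The median was 0.07 with both, 0.01 with S100A4 and 0.03 with PDGF-BB. Without the block 5 were higher with both and 5 with PDGF-BB. FARSA, a phenylalanine enzyme subunit, read 107, 114 and 107 CPM with PDGF-BB+S100A4, 68.3, 81.6 and 69.1 with S100A4, 93.04, 107 and 95.5 with PDGF-BB and 67.4, 78.5 and 68.1 in control. All libraries with PDGF-BB lay above all others. FARSA was higher by 0.62 ± 0.04 with both and 0.46 ± 0.04 with PDGF-BB, the leucine enzyme LARS1 by 0.51 ± 0.05 and 0.44 ± 0.05, the histidine enzyme HARS1 by 0.46 ± 0.04 and 0.41 ± 0.04, and the asparagine enzyme NARS1 by 0.35 ± 0.03 and 0.27 ± 0.03.

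Of 29 genes of mTORC1, its regulators and its amino acid sensing, 2 were higher and 12 lower with both, 1 higher and 3 lower with S100A4, and none higher and 12 lower with PDGF-BB. These counts stand beside 56.1%, 10.7% and 48.8% of all genes called, so the list held no larger share of calls than genes at large with both or with PDGF-BB. With PDGF-BB all 12 calls were lower, where 24.3% of all genes were higher and 24.5% lower. The median was −0.01 with both, −0.07 with S100A4 and −0.12 with PDGF-BB. Without the block 9 were lower with both and 5 with PDGF-BB, and none was called with S100A4 by edgeR, with 3 at an unadjusted p under 0.05. SESN1, a leucine-responsive inhibitor of the pathway, read 2.48, 1.95 and 2.97 CPM with PDGF-BB+S100A4, 6.81, 5.76 and 6.57 with S100A4, 3.89, 2.90 and 3.87 with PDGF-BB and 11.8, 7.93 and 8.20 in control. Every library with PDGF-BB was below every library without it. SESN1 was lower at −1.92 ± 0.14 with both, −0.54 ± 0.12 with S100A4 and −1.39 ± 0.13 with PDGF-BB. The folliculin partner FNIP1 (−0.50 ± 0.04 with both, −0.42 ± 0.04 with PDGF-BB), the arginine sensor relative CASTOR2 (−0.59 ± 0.06 and −0.47 ± 0.06) and the Rag GTPase RRAGC (−0.61 ± 0.06 and −0.40 ± 0.06) were lower as well. With S100A4, FNIP2 was higher (0.39 ± 0.05), and CASTOR2 (−0.24 ± 0.06) and TBC1D7 (−0.21 ± 0.06), a subunit of the complex that restrains mTORC1, were lower. The S100A4 count of 4 fell to 2 without replicate 1 or 3 of all groups or control replicate 3, and to 1 without S100A4 replicate 1. The SESN1 call was lost without replicate 1 of all groups, control replicate 1 or S100A4 replicate 1 (adjusted p up to 0.191), the CASTOR2 call in 6 and the TBC1D7 call in 10 of the alternatives with the block (adjusted p up to 0.149 and 0.343).

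Of 23 tested enzymes of amino acid, glutathione and polyamine metabolism, 7 were higher and 7 lower with both, 3 higher and none lower with S100A4, and 8 higher and 6 lower with PDGF-BB, beside the same 56.1%, 10.7% and 48.8% of all genes, so the shares called are near the background. The median was 0.05 with both, −0.02 with S100A4 and −0.01 with PDGF-BB. Without the block 5 were higher with both and 2 with PDGF-BB, and none was called with S100A4 by edgeR, with 2 at an unadjusted p under 0.05. Without replicate 3 of all groups the 14 calls with both fell to 7 and the 14 with PDGF-BB to 9; without replicate 1 the PDGF-BB calls were 9 too. ARG2, the arginase that makes ornithine from the arginine that SLC7A1 and SLC7A2 bring in, read 7.05, 11.2 and 10.2 CPM with PDGF-BB+S100A4, 6.67, 9.43 and 7.41 with S100A4, 6.24, 6.71 and 6.03 with PDGF-BB and 3.62, 4.92 and 3.49 in control. All treated libraries lay above all control libraries. ARG2 was higher by 1.23 ± 0.13 with both, 0.96 ± 0.13 with S100A4 and 0.65 ± 0.13 with PDGF-BB. ODC1, which turns ornithine into putrescine, was higher by 0.90 ± 0.04 with both and 0.70 ± 0.04 with PDGF-BB, and SAT1, which acetylates polyamines, by 1.56 ± 0.10 with both, 0.52 ± 0.10 with S100A4 and 1.04 ± 0.10 with PDGF-BB. The S100A4 call of SAT1 was lost without S100A4 replicate 2 (adjusted p = 0.0617). MAT2A, which makes the methyl donor S-adenosylmethionine from methionine, was higher by 0.32 ± 0.04 with both and 0.38 ± 0.03 with PDGF-BB. NOS2, the inducible nitric oxide synthase, had 9, 14 and 35 counts with PDGF-BB+S100A4, 3, 3 and 41 with S100A4, 1, 2 and 0 with PDGF-BB and 1, 2 and 0 in control. It was called higher with both (adjusted p = 7.31e-04) and with S100A4 (adjusted p = 0.0164), and no fold is given on so few control counts. It passed the count filter only through libraries given S100A4, so it was tested because of the groups in which it was high. The S100A4 call rested on replicate 3: it was lost in limma-voom and without S100A4 replicate 3, control replicate 3 or replicate 1 of all groups (adjusted p up to 0.360). The PDGF-BB count of this list includes NOS3, the endothelial nitric oxide synthase, which is outside the naming rule and whose change of 0.83 ± 0.32 turned negative without replicate 2.

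Carriers of other families, such as mitochondrial and lysosomal ones, had 14 tested genes, with 3 higher and 6 lower with both and 3 higher and 4 lower with PDGF-BB, beside 56.1% and 48.8% of all genes called, so these shares too are near the background. With S100A4 edgeR called none, with 5 at an unadjusted p under 0.05 (1 without the block); 1 was called under upper-quartile scaling and without replicate 1 of all groups, control replicate 1 or S100A4 replicate 1. The median was −0.23 with both, −0.04 with S100A4 and −0.13 with PDGF-BB. Without the block 2 were higher and 4 lower with both, and 2 higher and 2 lower with PDGF-BB. The mitochondrial glutamate carrier SLC25A22 was higher (0.47 ± 0.07 with both, 0.54 ± 0.07 with PDGF-BB), and the mitochondrial glycine carrier SLC25A38 was lower (−0.33 ± 0.05 and −0.40 ± 0.05). The lysosomal cationic amino acid exporter SLC66A1 (−0.55 ± 0.07 and −0.59 ± 0.07) and cystine exporter CTNS (−0.43 ± 0.06 and −0.44 ± 0.05) were lower too, as was SLC17A5, the lysosomal exporter of sialic acid, with both (−0.66 ± 0.09).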

How the data were processed

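The authors deposited raw read counts, as whole numbers, for 21153 Ensembl gene IDs in 12 libraries. Per the submitters' processing notes, the tools were featureCounts 1.4.6, STAR 2.4 and CASAVA 1.8.2, with the Sscrofa11.1 build; per the labels, reads were single-end and 100 nt long. Strandedness, the annotation release and the rule for multi-mapped reads are not stated in those sources, so counts of close paralogs and of overlapping or antisense pairs such as SLC7A6OS are uncertain. The table gives no gene lengths, so levels are not compared between genes.

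A symbol was found for 14572 IDs and for 10833 of the 12444 genes tested. Genes were kept by filterByExpr by group (minimum count 10) in edgeR 4.0.16 under R 4.3.3 and scaled by TMM. The quasi-likelihood test was fitted to all 12 libraries and 4 groups with replicate number as a block; it was two-sided, adjusted by Benjamini-Hochberg over 12444 genes, with a threshold of 0.05, for 7 comparisons. SE is the absolute log2 change over the square root of the test's F. Log2 CPM used a prior count of 2. Numbers were taken as pairing libraries from the data, not the labels: deviations from group means correlated at r = 0.746 to 0.908 in the 18 same-number pairs and at −0.676 to 0.136 in the 36 others, and all 12 libraries correlated best with their own number. The common biological coefficient of variation was 5.14% with the block and 27.2% without. Libraries of a group differed beyond sampling noise (chi-square per gene 22.9 to 162).

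Members, pathway lists, markers and tests were chosen with earlier results of these data known. Library values are given for the called members with the 8 smallest adjusted p per direction against control and the 4 smallest in the other comparisons, and always for SLC7A5, SLC3A2, SLC7A11, SLC7A1, SLC1A5 and SLC38A2; up to 4 genes per pathway list follow the same order. Alternatives were no block, RLE and upper-quartile scaling, no filter, a stricter filter (a mean of 5 CPM, with 3 libraries at 1 CPM or more), DESeq2 1.42.0, limma-voom 3.58.1, the groups compared alone, and each replicate left out. The fit was tested on simulated data. RefSeq (Sscrofa11.1) gave locations for all 58 members, matched by symbol only. It lists SLC7A5 as a long noncoding RNA, and what this means for the Ensembl row counted here was not tested. One untested member is not reported here by name.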

Additional observations from a re-analysis of the deposited data

How the results depend on the processing

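Replicate pairing decides how many members pass. Without the replicate block, members called numbered 2 against 18 with it for PDGF-BB against control, 0 against 6 for S100A4 against control, 2 against 15 for PDGF-BB+S100A4 against control, 0 against 3 for PDGF-BB+S100A4 against PDGF-BB, 2 against 13 for PDGF-BB+S100A4 against S100A4 and 5 against 14 for S100A4 against PDGF-BB; the interaction stayed at 0 in both fits. No other alternative moved a count by over 1.5 times. With libraries or replicate numbers left out, counts ran from 13 to 19 for PDGF-BB, 4 to 6 for S100A4 and 12 to 17 for both against control, 2 to 3 for both against PDGF-BB, 11 to 15 for both against S100A4 and 12 to 13 for S100A4 against PDGF-BB, and stayed at 0 for the interaction. Of 3751 values of single members under alternatives with the block, 3630 had the same status as in the main fit, called or not called. Of the rest, 80 lost a call and 41 gained one. A change of sign was counted only where either fit called the member, and there were 0. In every alternative with the block that tested the member, 13 of 18 calls were kept for PDGF-BB, 4 of 6 for S100A4 and 11 of 15 for both against control. The 4 for S100A4 include SLC1A2, which the stricter filter left out, so its call was not tried there. Upper-quartile scaling moved the share of higher calls over all genes to 39.9% (49.9% with TMM) for PDGF-BB, 50.5% (60.2%) for S100A4 and 38.01% (49.1%) for both against control. Among the other pathway genes, whose alternatives were added after seeing the data, NOS3 with PDGF-BB (0.83 with all libraries) was −0.16 without replicate 2 of all groups and ran from −0.43 (without PDGF-BB replicate 2) to 1.15 (without PDGF-BB replicate 3) with single libraries left out; the cause was not tested. When only the groups compared were fitted, 9 enzymes were called with both (14 with all groups) and 5 with S100A4 (3 with all groups). The fit of only the groups compared could not be made for the interaction, which needs all 4. Depth limits the 25 untested members and the 6 that passed the filter in some libraries only.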
